A study of Rattus norvegicus with 20 samples.

Results

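Organophosphate esters react with enzymes of the esterase and serine hydrolase families, and 8 genes for such enzymes were followed in rat liver across 6 dose groups of tricresyl phosphate (TCP). They were chosen by name as enzymes that organophosphates are known to inhibit (Bche, Ache, Pnpla6, Faah, Mgll and Apeh) or that break esters down (Pon1 and Pon3). The array annotation paired 7 of them with 12 probe sets, out of 14224 genes with 20837 probe sets, and Ache, acetylcholinesterase, was not analysed here. Not a single one of the 7 transcripts passed the test at any dose. At the highest dose Faah, Mgll, Apeh and Pnpla6 differed from control by -0.33, -0.30, -0.20 and -0.17 on the log2 scale, and without 1 outlying rat by -0.18, -0.08, -0.16 and -0.11.

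A serine hydrolase cleaves its substrate with an activated serine, and an organophosphate can attach to that serine and block it. TCP is known for delayed damage to nerve fibres, which has been tied to inhibition of neuropathy target esterase by a metabolite that the liver makes from the ortho-cresyl isomer. Liver is also the main source of the butyrylcholinesterase and paraoxonase of blood plasma. The arrays measure transcripts, so they cannot tell whether any enzyme was inhibited.

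TCP is a plasticizer, flame retardant and lubricant additive. Male Harlan Sprague-Dawley rats were gavaged on 4 consecutive days. The control rats (n = 5) received only the corn oil vehicle, and each TCP group (n = 3) received 62.3, 124.5, 248.6, 497.3 or 994.6 mg/kg in that oil. The isomer makeup of TCP and the rats' age are not stated in the labels read here. Each rat gave 1 array of left liver lobe RNA, so the spread between arrays includes that between animals.

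The albumin transcript Alb lay between 15.31 and 15.36 on all 20 arrays, and the mean of 10 measured hepatocyte markers between 13.64 and 14.03 (log2 level), so the tissue carried the defining transcripts of liver. Replicate 1 of 994.6 mg/kg stood apart at 37.1 on the first principal component, which held 20.1% of the variance, against -14.2 to 9.15 for the other 19 arrays. Red blood cell markers were lower with dose. Their mean over 8 measured genes was 7.84 to 7.97 in control and 6.71 to 7.42 at 994.6 mg/kg, and 4 of the 8 fell at that dose (3 without replicate 1). Of the markers of other cells, 1 of 12 for stellate cells and 1 of 7 for bile duct cells rose there. For hepatocytes, macrophages, endothelium, lymphocytes, neutrophils and nerve cells 0 were called (4 of 10, 0 of 9, 1 of 9, 0 of 10, 1 of 7 and 0 of 10 at an unadjusted p under 0.05, which 18.6% of all genes had), while the median of the neutrophil means was 5.94 there and 5.79 in control, with 1 array above every control. The 3' minus 5' signal of the GAPDH control transcript is a sign of RNA quality. It was 1.13 to 1.56 in control, 0.87 to 1.11 at 62.3 mg/kg and 0.86 to 1.10 at 248.6 mg/kg. At 497.3 and 994.6 mg/kg it was 0.71 to 0.90 and 0.61 to 0.84. The rats of 124.5 mg/kg had 0.76 and 0.77, with replicate 2 at 2.58. Apart from that array, each treated rat lay below every control. In whole liver, fewer cells of a type and less RNA per cell cannot be told apart.

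Bche, butyrylcholinesterase, is a plasma enzyme that binds organophosphates and so takes them out of circulation. Its log2 levels were 6.23, 6.44, 6.62, 6.12 and 6.57 in the 5 control rats, in order of replicate number. At 994.6 mg/kg they were 6.14, 6.44 and 6.40, which lay within the range of the controls. The highest group was 497.3 mg/kg with 6.87, 6.64 and 6.36, where 2 of the 3 rats lay above every control. The difference from control was 0.23 ± 0.12 there (log2 scale, limma's standard error, adjusted p = 0.486), 0.11 without its replicate 1 and 0.36 without its replicate 3, and -0.07 ± 0.12 at 994.6 mg/kg (adjusted p = 0.837). The 95% interval at 994.6 mg/kg ran from 0.797 to 1.14 times the control level. A rise or fall of the signal beyond that range was not seen, while a smaller one could not be resolved. The probe set averaged 6.43, near the array medians of 6.31 to 6.41, so the interval bounds its signal only. Without replicate 1 of that dose the difference was 0.03.

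Pnpla6, neuropathy target esterase, removes the fatty acids of phosphatidylcholine and lysophosphatidylcholine in the membrane of the endoplasmic reticulum. It lay at 7.14, 7.01, 7.20, 7.10 and 7.14 in control and at 6.82, 6.88 and 7.13 at 994.6 mg/kg. At this dose 2 of 3 rats were below every control and the third was among them. The difference was -0.17 ± 0.08 (0.887 times control, 95% interval 0.792 to 0.992, adjusted p = 0.229), -0.11 without replicate 1 and -0.27 without replicate 3. From 62.3 to 497.3 mg/kg each of the 12 rats lay between 6.95 and 7.20. With array weights, which give deviating arrays less influence, Pnpla6 was called at 994.6 mg/kg (-0.22, adjusted p = 0.00724), as were 2838 of the 14224 genes.

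The paraoxonases Pon1 and Pon3 are calcium-dependent esterases and lactonases that hepatocytes make and that travel on high density lipoprotein. Pon1 is known for splitting the active oxons of several organophosphate pesticides. In the rat annotation Pon1, Pon3 and Pon2 follow each other on chromosome 4 with 0 genes between them. Pon1 was the steadiest member: its group means spanned 0.05 on the log2 scale, and single rats ran from 13.68 to 13.87. In control it was 13.82, 13.72, 13.82, 13.72 and 13.82, and at 994.6 mg/kg 13.78, 13.79 and 13.77, inside the control range. The difference at 994.6 mg/kg was 0.01 ± 0.06, with a 95% interval of 0.916 to 1.10 times control (adjusted p = 0.975).

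Pon3 was 12.72, 12.72, 12.72, 12.68 and 12.82 in control and 12.49, 12.69 and 12.70 at 994.6 mg/kg, a difference of -0.11 ± 0.08 (adjusted p = 0.565) with 1 rat below all controls. Without that rat, replicate 1, the difference was -0.04. At 62.3 mg/kg its 3 rats, at 12.63, 12.64 and 12.62, all lay below every control, as did 1.32% of all genes. That difference of -0.10 ± 0.08 was not called, and the groups at the doses above it overlapped with control. The highest single value, 12.96, was replicate 2 of 124.5 mg/kg, the array with the GAPDH difference of 2.58. Pon2, the neighbour that stays inside cells, differed by -0.13 ± 0.07 at 994.6 mg/kg (adjusted p = 0.314).

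Faah, fatty acid amide hydrolase, breaks down anandamide and related fatty acid amides. Of the members it came closest to the threshold. Control rats lay at 10.79, 10.65, 10.75, 10.64 and 10.96, and those at 994.6 mg/kg at 10.13, 10.65 and 10.51. Replicates 1 and 3 were below all controls, replicate 2 was among them, and replicate 1 was the lowest of all 20 arrays. The difference was -0.33 ± 0.11 (0.796 times control, 95% interval 0.681 to 0.930, adjusted p = 0.0860). At 497.3 mg/kg the rats lay at 10.63, 10.80 and 10.66, overlapping with control. Without replicate 1 of 994.6 mg/kg the difference was -0.18 (adjusted p = 0.523), and without replicate 2 it was -0.44 and called (adjusted p = 0.0379). In the fit without replicate 2, 4.22% of all genes were called.

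The other Faah probe set, 1384341_at, gave the clearest separation among the 12. It was 9.10, 9.09, 9.16, 9.07 and 9.04 in control and 8.50, 8.79 and 8.78 at 994.6 mg/kg, so every treated rat lay below every control, as did 5.75% of the 31042 probe sets. The difference was -0.40 ± 0.11 (adjusted p over all probe sets 0.0671), and 2.60% of the probe sets were called at this dose. With the mean of the Faah probe sets the gene was called (-0.37, adjusted p = 0.0375), where 4.84% of all genes were. The lower doses gave no order in this probe set: 62.3 mg/kg had 8.73, 9.08 and 8.75, and 497.3 mg/kg had 9.16, 9.06 and 8.92. Probe sets of a gene share the same RNA, so they are not replicates of each other.

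Mgll, monoglyceride lipase, cleaves monoacylglycerols, among them the endocannabinoid 2-arachidonoylglycerol, and takes part in the last step of triglyceride breakdown. It was 9.75, 9.78, 9.82, 9.52 and 9.51 in control and 8.95, 9.65 and 9.53 at 994.6 mg/kg. Only replicate 1 lay below the controls, and the difference of -0.30 ± 0.14 (adjusted p = 0.241) became -0.08 without it. Its group means were highest at 248.6 mg/kg (9.85 ± 0.11, SD, n = 3) and lowest at 994.6 mg/kg (9.38 ± 0.37, SD, n = 3).

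The 4 Mgll probe sets did not share a profile. Probe set 1375247_at was 9.52, 9.27, 9.35, 8.81 and 9.64 in control and 8.35, 8.55 and 8.75 at 497.3 mg/kg, where all 3 rats lay below all controls (3.79% of probe sets did so). That difference was -0.77 ± 0.24 (adjusted p over all probe sets 0.213, with 0.312% of probe sets called), and at 994.6 mg/kg it was -0.55 ± 0.24 (adjusted p 0.291). At 497.3 mg/kg the probe set that represents the gene was at 9.76, 9.79 and 9.69, within the control range. The other probe sets, 1370831_at and 1375355_at, differed by -0.13 ± 0.21 and -0.14 ± 0.12 at 994.6 mg/kg. Pon1 likewise had an additional probe set, 1393941_at, which differed by 0.24 ± 0.13 at that dose (adjusted p 0.445). Pon1 1393941_at averaged 5.96 and Mgll 1375355_at 6.50 over all arrays, below or near the array medians of 6.31 to 6.41. Their differences thus rest on weak signals.

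**Figure D1:**
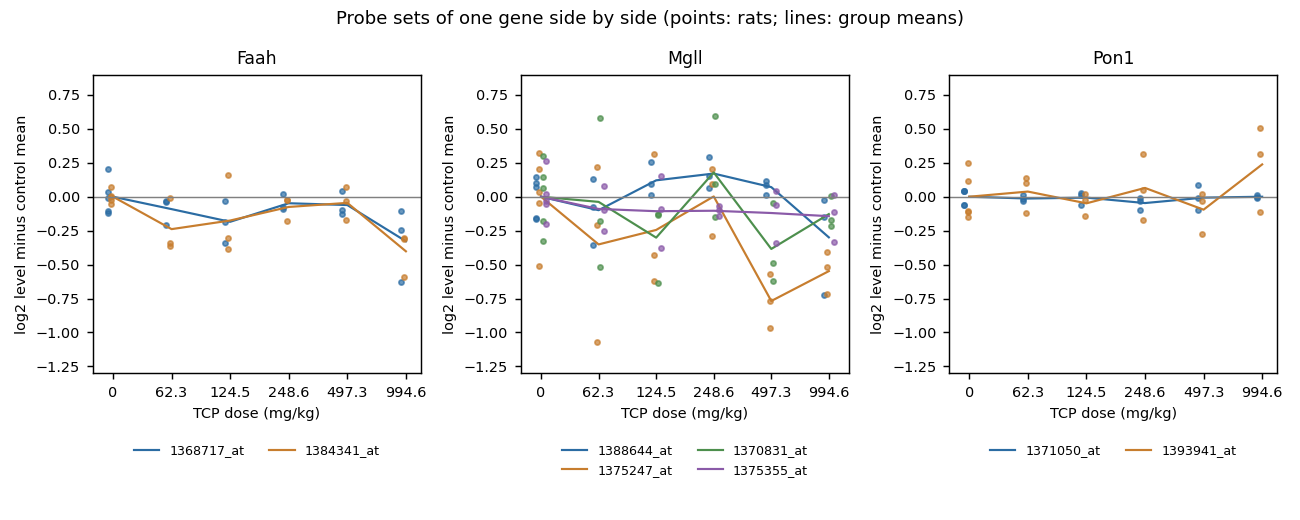
Log2 level minus the control mean for each probe set of Faah, Mgll and Pon1 against TCP dose, with 1 point per rat and lines through the group means. The Faah probe sets are both lower at 994.6 mg/kg (-0.33 and -0.40), while those of Mgll part at 497.3 mg/kg, where 1375247_at is at -0.77.

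Apeh, acylpeptide hydrolase, removes acetylated amino acids from the start of peptides and is known to be inhibited by organophosphates such as dichlorvos. Its control rats lay close together at 10.01, 10.02, 10.00, 10.01 and 9.97, a standard deviation of 0.02. At 994.6 mg/kg it was 9.72, 9.89 and 9.80, all below every control, as in 7.12% of all genes. The difference was -0.20 ± 0.09 (0.872 times control, adjusted p = 0.262), and -0.16 without replicate 1. At the doses from 62.3 to 248.6 mg/kg, 1 rat in each group stood above the controls, at 10.21, 10.20 and 10.17, and the others below them. Within these groups the standard deviation was 0.14 to 0.20, which is larger than in control.

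**Figure D2:**
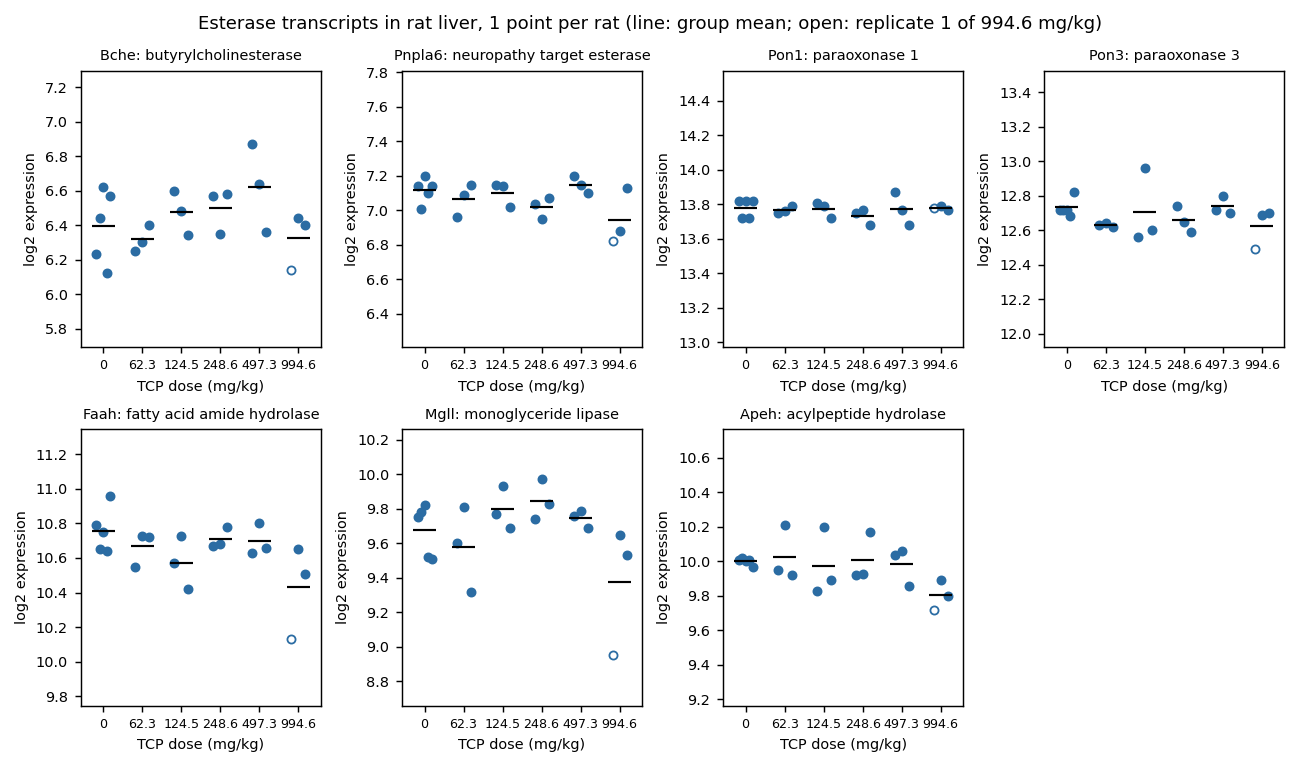
Log2 expression of the 7 measured esterase genes against TCP dose, 1 point per rat, with a line at each group mean and replicate 1 of 994.6 mg/kg drawn open. All panels span the same log2 range, and the open points of Faah (10.13) and Mgll (8.95) are the lowest in their panels.

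Across the members, 0 of 7 were called at 994.6 mg/kg by limma (adjusted p under 0.05), where 4.46% of all genes were called. Without adjustment 4 of 7 had a p under 0.05 (Apeh, Faah, Mgll and Pnpla6, each lower), against 18.6% of all genes. The members' median difference was -0.17, and that of all genes -0.01. Of the 10 hepatocyte markers 9 likewise lay below the control mean, with a median difference of -0.10 (-0.04 without replicate 1). Their list mean was 13.66 to 13.71 at this dose and 13.70 to 13.80 in control, and 1 of them was called lower in the dose trend. Their part in the members' differences was not tested. Without replicate 1 the count at an unadjusted p under 0.05 was 0 of 7, against 12.1% of all genes, and 5 of 7 lay below control. With the GAPDH difference as a covariate it was also 0 of 7, against 20.5%. Faah then differed by -0.25, Mgll by -0.17, Pnpla6 by -0.16 and Apeh by -0.06. Since the GAPDH difference was itself lower in nearly every treated rat than in control, a fit with this covariate cannot separate it from treatment. Leaving out control replicate 1 or 3 left only Faah with an unadjusted p under 0.05. Leaving out control replicate 2 or 5, with 2 members each, moved the count by a factor above 1.5 as well. The count was 2 of 7 with a trended, robust eBayes (18.5% of all genes) or the replicate number as a block (16.0%). With only the compared groups fitted it was 2 of 7 too (19.2%).

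At the lower doses, with each gene taken at the probe set that represents it, 0 of 7 members were called. An unadjusted p under 0.05 was found for 0 of 7, and for 2.46%, 5.04%, 6.64% and 12.2% of all genes from 62.3 to 497.3 mg/kg. The share of all genes called was 0% at 62.3 mg/kg, 0.00703% at 124.5 mg/kg, 0.0562% at 248.6 mg/kg and 0.731% at 497.3 mg/kg, so few genes of any kind passed there. The differences of these probe sets at the 4 doses ran from -0.18 (Faah, 124.5 mg/kg, and -0.26 to -0.11 with each array left out) to 0.23 (Bche, 497.3 mg/kg). Other probe sets of Faah and Mgll went beyond that range. The furthest was Mgll 1375247_at at 497.3 mg/kg, at -0.77 (limma's unadjusted p = 0.00526, adjusted p over all probe sets 0.213). A smaller p was found for 2.47% of probe sets there. The slope per dose step (0 is control and 5 is 994.6 mg/kg) was called for 0 of 7 members and for 6.47% of all genes. Among the probe sets that represent the genes, Faah had the steepest slope, at -0.04 ± 0.02 per step (adjusted p = 0.213). Without replicate 1 of 994.6 mg/kg that slope was -0.02. With these probe sets Faah was the only member with an unadjusted p under 0.05, as 20.7% of all genes had. Mgll 1375247_at, another probe set, was steeper at -0.11 ± 0.04 per step, with limma's unadjusted p = 0.0215. It was not called (adjusted p over all probe sets 0.195). A test for any difference among the 6 groups called 0 of 7 members (0 at an unadjusted p under 0.05) and 0.816% of all genes (10.2% unadjusted). In this F test the other probe sets Faah 1384341_at and Mgll 1375247_at had an unadjusted p of 0.0326 and 0.0445. Neither was called, and 6.25% and 7.79% of probe sets had a smaller p. With 3 treated rats in a group, a missing call does not show that a transcript stayed level.

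**Figure D3:**
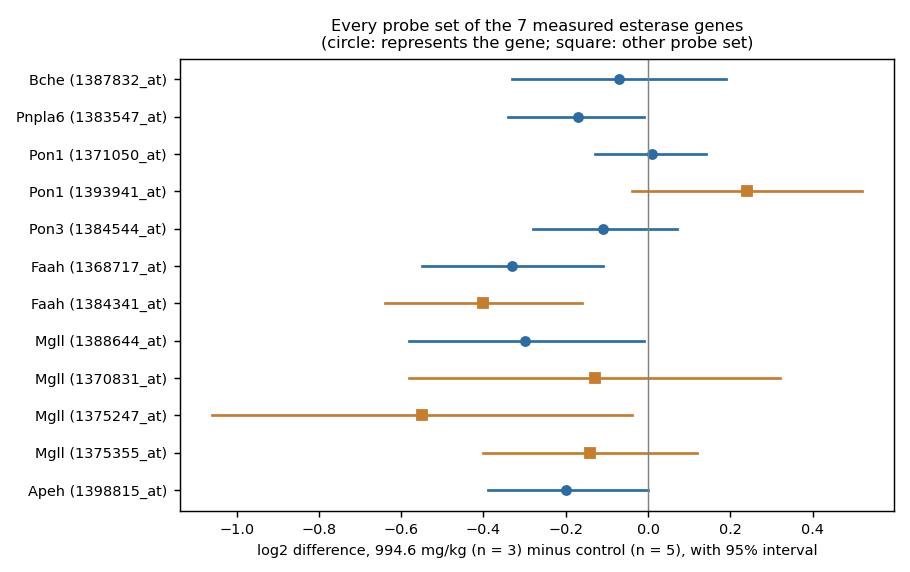
Difference between 994.6 mg/kg and control on the log2 scale for all 12 probe sets, with 95% intervals from the fit over all probe sets. Circles are the probe sets that represent the genes and squares the others, and the unadjusted intervals of Faah (-0.55 to -0.11 and -0.64 to -0.16), Pnpla6, Apeh, Mgll 1388644_at and Mgll 1375247_at lie below 0.

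Genes with the most similar levels over the 20 arrays were found by Pearson's r among 13989 named genes. As the highest of so many values they describe these arrays only, so no p is given. Faah went most closely with Stmp1 (r = 0.93, Spearman's rho = 0.77) and Ehmt2 (r = 0.92, rho = 0.87), and without replicate 1 of 994.6 mg/kg r was 0.84 and 0.83. Apeh was nearest to Atox1 (r = 0.89, rho = 0.77) and Glb1 (r = 0.88, rho = 0.83), and Mgll to Rbfa (r = 0.85, rho = 0.70) and Nudt7 (r = 0.82, rho = 0.68). Pon3 was nearest to Pigp (r = 0.84) and Bicra (r = 0.82), and Pon1 to Rasgrp3 (r = 0.78) and Gucy1b1 (r = 0.75). The neighbouring paraoxonases Pon1 and Pon3 correlated with each other at r = 0.21 (rho = 0.26). Bche was nearest to C5h1orf210 (r = 0.79) and H2bc8 (r = 0.75). Pnpla6 was nearest to Anpep (r = 0.79, rho = 0.63) and Aplf (r = 0.76, rho = 0.64). Without replicate 1 of 994.6 mg/kg the r of Pnpla6 was 0.68 with both.

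The genes around these enzymes were described with 5 lists, at 994.6 mg/kg against the 2.50% of all genes called higher and 1.96% called lower there. Of 22 measured cholinergic genes, the transporters, receptors and anchors of acetylcholine signalling, 0 were called (0 at an unadjusted p under 0.05), and their median difference was -0.04. Among the probe sets that represent the genes, those of the choline transporter Slc44a1 and the receptor subunit Chrne differed most. Slc44a1 differed by 0.22 ± 0.18 (adjusted p = 0.562), and by -0.10 without replicate 1. Its other probe sets, 1370935_at and 1368480_at, differed by 0.47 ± 0.28 and 0.01 ± 0.12. Chrne differed by -0.18 ± 0.11 (adjusted p = 0.418), and by -0.06 without replicate 1. Its group means of 5.84 to 6.06 lay below the array medians of 6.31 to 6.41, so this difference rests on a weak signal.

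Of 45 other serine hydrolases and A-esterases, 1 rose and 1 fell, with a median difference of -0.04. Rgn, regucalcin, a calcium-binding lactonase of hepatocytes that can also hydrolyse organophosphates, fell by 0.33 ± 0.08 on the log2 scale (adjusted p = 0.0170). It was 13.74, 13.70, 13.72, 13.46 and 13.70 in control, 13.31, 13.32 and 13.34 at 497.3 mg/kg, and 13.35, 13.34 and 13.30 at 994.6 mg/kg. All 6 rats of these highest doses lay below all controls (as in 4.29% of genes at 497.3 mg/kg), and the fall was already called at 497.3 mg/kg (-0.34 ± 0.08, adjusted p = 0.0430). The slope of -0.07 ± 0.01 per dose step was called too (adjusted p = 0.00131), and not among treated rats alone (adjusted p = 0.0996). At 994.6 mg/kg the size held without replicate 1 (-0.34) but the call ended (adjusted p = 0.0681), as it did with only these groups in the fit (adjusted p = 0.0582).

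Abhd5, the protein that activates adipose triglyceride lipase, rose by 0.59 ± 0.16 (adjusted p = 0.0449). Its rats were at 10.28, 10.13 and 10.23 at 994.6 mg/kg, all above the controls at 9.32 to 9.92, as in 6.91% of genes. This call ended without any 1 of the 3 treated arrays or without control replicate 1, 2, 4 or 5, with adjusted p from 0.0581 to 0.191 and a difference of 0.52 to 0.64. The call also ended when each probe set was tested separately (adjusted p = 0.0593). Abhd5 has a related fold but no catalytic serine of its own. Without replicate 1 of 994.6 mg/kg, 0 genes of this list were called, and without replicate 2 or 3 or control replicate 1, 4 or 5 it was 1.

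Among 20 genes of endocannabinoid and fatty acid amide turnover, the pathway of Faah and Mgll, 1 fell and 0 rose, with a median difference of -0.10. Alox15, arachidonate 15-lipoxygenase, lay at 7.25 to 7.58 in control and at 6.85, 6.73 and 6.91 at 994.6 mg/kg. It fell by 0.58 ± 0.10 (0.667 times control, adjusted p = 0.00223), kept that call whichever array of these groups was left out, and was also called at 497.3 mg/kg (-0.43 ± 0.10, adjusted p = 0.0480). Its slope was -0.10 ± 0.02 per dose step (adjusted p = 0.00112), and was not called among treated rats alone (adjusted p = 0.236). Alox15 is known from maturing red blood cells as well as leukocytes. At 994.6 mg/kg the red blood cell genes Alas2 and Hbb differed by -1.63 ± 0.23 and -1.54 ± 0.25 (both called). Replicate 1 was the lowest array for both, with Hbb at 10.66 there and at 12.43 and 12.10 in the other rats of that dose. Without it both were still called, and Alas2 differed by -1.15. Their part in the Alox15 difference was not tested. The count for this list was 2 without control replicate 3 or without replicate 3 of the dose.

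Of 21 genes of the high density lipoprotein particle on which paraoxonase travels, 1 rose and 1 fell, with a median of -0.02. Clu, clusterin, rose by 0.40 ± 0.09 (adjusted p = 0.0179) from 12.90 to 13.29 in control to 13.59, 13.48 and 13.54. Pltp, phospholipid transfer protein, fell by 0.47 ± 0.12 (adjusted p = 0.0320), with treated rats at 8.92, 8.98 and 9.33 against 9.27 to 9.73, so the groups overlapped. Apoa1, the main protein of the particle, differed by -0.21 ± 0.07 (adjusted p = 0.110). Without replicate 1 of 994.6 mg/kg 0 of these genes were called (Clu 0.37, adjusted p = 0.104, and Pltp -0.40, adjusted p = 0.204), and with the GAPDH covariate likewise (adjusted p = 0.0552 and 0.0827). The call of Pltp also ended without replicate 2 or without control replicate 1, 3, 4 or 5 (adjusted p 0.0589 to 0.104). With the mean of its probe sets Clu differed by 0.27 (adjusted p = 0.116), and a fit of these groups alone called neither (adjusted p = 0.0679 for Clu and 0.0673 for Pltp).

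Of 26 genes of choline phospholipid turnover, where neuropathy target esterase acts, 1 rose and 1 fell, with a median of -0.02. Gpcpd1, which splits the glycerophosphocholine that this esterase releases, rose by 0.62 ± 0.15 (1.54-fold, adjusted p = 0.0237). It lay at 6.75 to 7.43 in control and at 7.92, 7.76 and 7.76 at 994.6 mg/kg, above all controls, while its other probe set, 1393606_at, differed by 0.11 ± 0.11. Pemt, which makes phosphatidylcholine by methylation, fell by 0.34 ± 0.10 (adjusted p = 0.0498), from 12.20 to 12.44 in control to 11.79, 12.15 and 12.07. The close homologue of Pnpla6, Pnpla7, differed by -0.10 ± 0.11 (adjusted p = 0.711). Without replicate 1 of 994.6 mg/kg neither gene was called (Gpcpd1 0.57, adjusted p = 0.137, and Pemt -0.23, adjusted p = 0.340). The call of Gpcpd1 also ended without control replicate 1 or 5 (adjusted p = 0.0534 and 0.0505). That of Pemt ended without replicate 3 or control replicate 1, 2, 4 or 5 (adjusted p 0.0594 to 0.103), with quantile normalization (adjusted p = 0.0515), median centring (adjusted p = 0.0905), separate probe sets (adjusted p = 0.0666) and a fit of these groups alone (adjusted p = 0.0911).

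**Figure D4:**
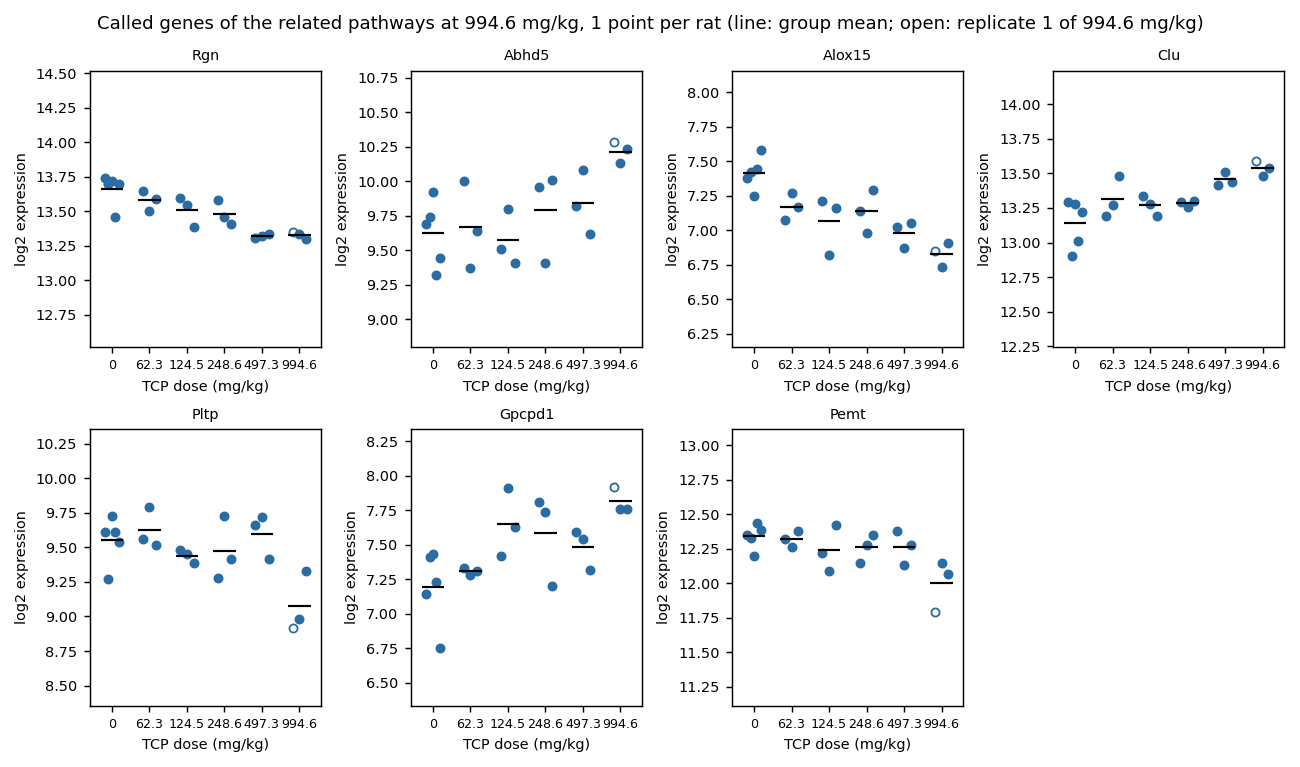
Log2 expression of the 7 genes called at 994.6 mg/kg in the lists around the esterases, against TCP dose, 1 point per rat, with a line at each group mean and replicate 1 of 994.6 mg/kg drawn open. Rgn and Alox15 are lower at both 497.3 and 994.6 mg/kg than in every control, while Abhd5 is above and Pemt below every control at 994.6 mg/kg, and Pltp overlaps with control there.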

How the data were processed

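Liver RNA of 20 rats was measured on 1-colour Affymetrix arrays. The authors deposited log2 expression values per probe set, and the submitters' processing notes name RMA (version not given in the sources used here). Which arrays were normalized together is not stated in the labels. The medians of the 20 arrays ran from 6.31 to 6.41, so the values do not share one distribution. Levels of different probe sets were not compared, apart from setting weak ones beside the array medians. Of 31042 probe sets that are not controls, 20837 had 1 gene symbol, 425 several and 9780 none here. Symbols were updated through gene identifiers (20769), accessions (2) or kept (66). A symbol listed under 2 identifiers, as for Faah (11 probe sets in all), counted as 1. A gene was represented by its brightest probe set (mean of the 20 arrays), with no filter on low values.

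Values of all 14224 genes were fitted with limma 3.58.1 in R 4.3.3 (1 mean per group, 14 residual and 4.77 prior degrees of freedom). P-values were adjusted by Benjamini-Hochberg over all genes, and genes were called at an adjusted p under 0.05. A fit over all 31042 probe sets gave the values of single probe sets. All printed adjusted p are limma's, errors of differences are its standard errors, and the number of arrays limits the precision. The fit was tested on simulated data with known changes at 994.6 mg/kg or along the dose steps. At 994.6 mg/kg it recovered 19.1% of changes of 0.3 on the log2 scale, 62.1% of 0.5 and 97.0% of 1, with 7 false calls. Most changes as small as 0.3 were thus missed. Up to 4 called genes with the largest change, or the 2 largest where none was called, were named from each of 5 lists, along with a few others beside them, chosen after their values were seen (Pon2, Pnpla7 and Apoa1). The members and lists were chosen with earlier results of these data known.

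Replicate numbers do not mark shared animals. Deviations from group means of arrays with the same number correlated at -0.38 to 0.37 (mean 0.04). Those of arrays with different numbers correlated at -0.34 to 0.34 (mean -0.02), so arrays with the same number were not treated as pairs. Alternatives covered probe set use, a filter, normalization, eBayes settings, array weights, the arrays fitted, the replicate block, the GAPDH difference as a covariate, the dose scale, the threshold and each array left out.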

Additional observations from a re-analysis of the deposited data

Results flagged for a closer look

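In the control group Rgn stood out by the gap of 1 array: replicate 4 was at 13.46 on the log2 scale and the other 4 at 13.70 to 13.74. This was 1 of 21 probe sets checked in this way, and chance alone flags about 1 in 20.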

How the results depend on the processing

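The count of 0 members called held under every alternative at 62.3, 124.5, 248.6 and 497.3 mg/kg and in the dose trend. At 994.6 mg/kg it was 1 with the mean of the probe sets, with array weights and at an adjusted p under 0.10, and 0 to 1 with each array left out. Over all doses it was 1 with array weights. The cause of these and the following changes was not tested.

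For the 5 lists at 994.6 mg/kg, array weights gave 1 called cholinergic gene (0 otherwise), 5 endocannabinoid and fatty acid amide genes, 5 of the lipoprotein particle, 8 of choline phospholipid turnover and 9 other hydrolases. The endocannabinoid list (1 called) gave 2 without the lowest 50% of genes, with the GAPDH covariate and with only the compared groups, and 3 with quantile normalization, median centring and an adjusted p under 0.10, and 1 to 2 with each array left out. The lipoprotein list (2) gave 1 with the mean of the probe sets, 4 with a trended, robust eBayes and 0 with the covariate or only the compared groups, and 0 to 3 with each array left out. The choline list (2) gave 1 with separate probe sets or median centring, 4 at an adjusted p under 0.10, and 0 to 3 with each array left out. The other hydrolases (2) gave 1 with separate probe sets or only the compared groups, 4 with quantile normalization, median centring, the covariate or an adjusted p under 0.10, and 0 to 2 with each array left out. Over all genes, 635 were called (356 higher, 279 lower), 998 with quantile normalization (477 and 521), 2838 with array weights (1510 and 1328), 450 with the covariate (346 and 104) and 1205 at an adjusted p under 0.10.

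With the replicate number as a block, which leaves control replicates 4 and 5 without partners, 310 genes were called (154 higher, 156 lower). The lists then had 0 lipoprotein genes, 0 choline genes and 1 other hydrolase, and Pon1 differed by -0.00 and Faah by -0.30 (adjusted p = 0.185).

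Signs that turned belonged to values that were not called. At 994.6 mg/kg Bche was 0.02 with array weights and -0.14 to 0.03 with each array left out, Pon1 -0.06 with quantile normalization and -0.01 to 0.02, Pon3 0.01 with the covariate, and Slc44a1 -0.10 to 0.43. The dose slope of Pon1 was 0.0114 with the mean of the probe sets, 0.00353 in treated rats alone, 0.00116 per 100 mg/kg, and -0.00357 to 0.00222 with each array left out. That of Pon3 was 0.0119 with the covariate and 0.00274 in treated rats alone, and that of Chrne 0.00225 and 0.00590. The slope of Mgll was 0.00511 with the covariate and -0.0307 to 0.0121 with each array left out, and that of Slc44a1 -0.0131 to 0.0419.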
